A study of Mus musculus with 20 samples.

Results

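GPS2 peaks of mouse brown adipose tissue were crowded into 481 of the 2472 windows of 1 Mb that cover chromosomes 1 to 19, which is 19.5% of the windows. A window was called dense when it held the centres of 40 or more peaks, male and female brown adipose lists added. Windows were cut from position 0 in the mm8 coordinates of the files and ran to the last peak of any list on each chromosome. The dense windows held 25073 of the 58371 brown adipose peaks, or 43%. This share follows from the way the windows were chosen and is given as a description. The same windows held only 8.49% of the GPS2 peaks of untreated 3T3-L1 cells and 8.96% of those of 3T3-L1 cells given FCCP, lists that played no part in the choice.

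The series comprises 20 mouse ChIP-seq samples, of which 4 GPS2 peak lists are described here and the other 16 samples have no list in this account. A peak list names the places where sequenced fragments pulled down with an antibody pile up above their surroundings. The brown adipose lists come from 1 male and 1 female library of mice with intact Gps2 on a mixed 129sv/C57BL6J background. Each was called against the GPS2 library of knockout tissue of the same sex, in which floxed Gps2 is deleted by an Adipoq-Cre transgene. The adiponectin promoter drives that Cre, so cells of the tissue that do not express it keep the gene. Age and the number of animals per library are not given in the sources used here. 3T3-L1 is a mouse preadipocyte line, and its lists come from 1 untreated pool and 1 FCCP-treated pool, each of 2 libraries by the names in the file headers, without a control library. FCCP is an uncoupler of mitochondrial respiration. Its dose and time are not given in the sources used here. Peak lists carry no expression of marker genes, so the tissue and the cell line were not checked against markers.

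GPS2 is a small subunit of the corepressor complexes built on N-CoR and SMRT, which also carry the deacetylase HDAC3 and TBL1-family proteins. It binds chromatin through transcription factors rather than through a DNA sequence of its own, and it is known to shuttle between mitochondria and the nucleus. Brown adipose tissue burns fuel for heat and is rich in mitochondria. On the scale of megabases, mammalian chromosomes alternate between stretches rich in active genes and gene-poor stretches, and binding sites of many regulators are spread unevenly over them. An annotation of mm8 was not used here, so windows are named by position and not by the genes in them.

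With 1 library or pool behind each list, differences between lists could not be set against replicates, and p-values were not computed. The intervals take every peak as an independent count and hold no other error. The male and female lists held 39649 and 18722 peaks on these chromosomes, and the untreated and FCCP lists 42486 and 57169. Library sizes were 30069322 tags for male and 39310667 for female tissue, 74504840 for untreated and 66979291 for FCCP-treated cells. A tag is 1 mapped fragment end. A peak of median height held 13 tags in each brown adipose list, 30 in untreated and 27 in FCCP-treated cells. The labels give a sex for each brown adipose library, while the growth protocol speaks of male mice only. Peaks on Y numbered 5 in males and 1 in females, with a further 27 and 1 on Y fragments that have no position.

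The windows ranged from 0 to 89 brown adipose peaks, with a median of 20 and quartiles of 8 and 35. There was no gap in the distribution at the limit of 40: 21 windows had 39 peaks and 28 had 40. The windows just outside and just inside were alike in the lists that did not choose them, with a median of 25 3T3-L1 peaks at 39 and 24.5 at 40, both lists added. Of the windows, 60 held no peak of any list, and 57 of these were among the first 3 windows of a chromosome.

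**Figure D1:**
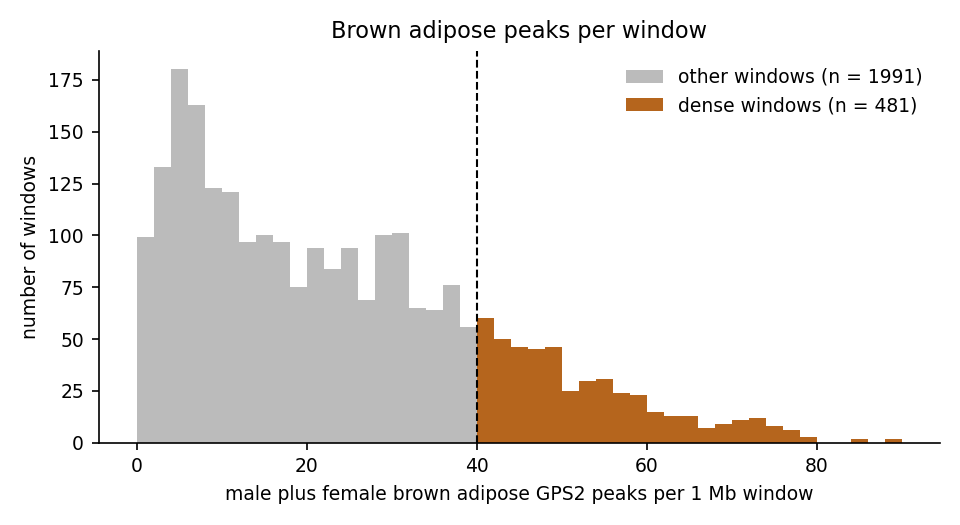
Number of 1 Mb windows (vertical axis) by the number of male and female brown adipose peaks in them (horizontal axis, bins of 2 peaks). Grey bars are the 1991 other windows, brown bars the 481 dense windows, and the dashed line is the limit of 40; the counts run on across the limit without a gap.

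Every one of the 19 chromosomes had dense windows, but unequally. Chromosome 11 had the highest share, with 43 of its 122 windows dense (35.2%), and chromosome 14 the lowest, with 14 of 124 (11.3%). Chromosomes 17 (27.1%), 19 (25.8%) and 2 (24.2%) followed chromosome 11, and chromosomes 3 (11.9%) and 12 (14%) were near the lower end. The average number of brown adipose peaks per window ordered the extremes in the same way, from 19 on chromosome 14 to 32.3 on chromosome 11.

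Dense windows became more frequent towards the far end of the chromosomes. Mouse chromosomes have their centromere at the start of the numbering. When the windows of each chromosome were divided into 5 equal parts from that end, 9.92% of windows in the first part were dense. The share was 17.2% in the second part, 17.9% in the third, 23.9% in the fourth and 28.3% in the fifth. The first part contained 58 of the 60 windows without any peak, and without these its share was 11.2%. The male list averaged 11.4 peaks per window in the first part and 21.3 in the last, and the female list 5.58 and 9.30. The 3T3-L1 lists ran the other way, from 20.8 to 13.1 peaks per window in untreated cells and from 26.9 to 17.7 after FCCP. From the first part to the last, 16, 18, 19, 18 and 19 chromosomes had dense windows.

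Dense windows often lay side by side. They formed 258 runs of adjacent windows, of which 136 were single windows, 73 pairs and 24 triplets. A dense window had a dense neighbour in 345 of 481 cases (71.7%). Of all windows that flank a dense one, counted from each side, 46.4% were dense, against 19.5% of all windows. Runs of 4 or more numbered 25, took up 127 windows on 13 chromosomes, and held 5044 male and 2021 female peaks against 1540 peaks of both 3T3-L1 lists.

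The longest run was 9 windows on chromosome 17, from 23 to 32 Mb. It held 364 male and 122 female peaks, and 38 untreated and 42 FCCP peaks. In order, its windows had 40, 48, 41, 65, 51, 68, 62, 42 and 69 brown adipose peaks. The same windows had 39, 9, 5, 6, 2, 2, 11, 1 and 5 3T3-L1 peaks, so that only the first of them came near the typical window of the genome. The window before the run, at 22 to 23 Mb, had 6 brown adipose and 93 3T3-L1 peaks, and the window after it, at 32 to 33 Mb, had 29 and 57.

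Chromosome 11 had 4 long runs, at 59 to 63, 74 to 80, 94 to 99 and 115 to 121 Mb. Their brown adipose counts were 244, 322, 312 and 357, and their 3T3-L1 counts 54, 107, 49 and 27. The run at 74 to 80 Mb began next to a window with 11 brown adipose and 142 3T3-L1 peaks. In the run at 115 to 121 Mb, near the end of the chromosome, the 6 windows had between 47 and 72 brown adipose peaks and between 1 and 8 3T3-L1 peaks.

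Chromosome 2 also had 4 long runs, at 29 to 33, 118 to 122, 154 to 158 and 163 to 168 Mb. They held 244, 185, 224 and 275 brown adipose peaks and 11, 87, 48 and 15 3T3-L1 peaks. Chromosome 5 had runs at 30 to 37, 121 to 126 and 134 to 138 Mb, with 336, 299 and 230 brown adipose peaks and 135, 17 and 31 3T3-L1 peaks. These are totals of runs of different length. Per window, the chromosome 2 runs at 154 to 158 and 163 to 168 Mb had 56 and 55 brown adipose peaks. Their 3T3-L1 peaks per window were 12 and 3. The chromosome 5 runs at 121 to 126 and 134 to 138 Mb had 59.8 and 57.5 brown adipose peaks, and 3.40 and 7.75 3T3-L1 peaks. The 3T3-L1 counts thus differed between these runs of like brown adipose density.

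On chromosome 15 the runs at 75 to 82 and 97 to 103 Mb held 389 and 367 brown adipose peaks and 43 and 64 3T3-L1 peaks. The run at 131 to 138 Mb of chromosome 4 had 397 and 49. On chromosome 8, the run at 122 to 126 Mb had 225 brown adipose peaks and 5 3T3-L1 peaks, the lowest density of 3T3-L1 peaks among the long runs at 1.25 per window, and the run at 127 to 131 Mb had 237 and 40.

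Chromosome 9 had runs at 61 to 67 Mb (332 brown adipose and 99 3T3-L1 peaks) and 119 to 123 Mb (203 and 48). Chromosome 7 had runs at 97 to 102 Mb (254 and 122) and 109 to 113 Mb (192 and 92), the first of them with the highest density of 3T3-L1 peaks among the long runs, 24.4 per window. The remaining runs lay on chromosome 6 at 91 to 95 Mb (178 and 92), chromosome 12 at 84 to 88 Mb (232 and 57), chromosome 16 at 30 to 34 Mb (267 and 77) and chromosome 19 at 3 to 8 Mb (278 and 91). The chromosome 16 run was the densest in brown adipose peaks, with 66.8 per window. Of the 25 runs, 21 had fewer 3T3-L1 peaks per window than the mean of the windows flanking them. The chromosome 4 run equalled its flanks at 7. The run at 154 to 158 Mb of chromosome 2 had 12 against 9.50, that at 61 to 67 Mb of chromosome 9 had 16.5 against 15.5, and that at 97 to 103 Mb of chromosome 15 had 10.7 against 10.

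Counts were also read by distance from the edge of a dense stretch. The limit of 40 places windows on either side of that edge, so the drop in brown adipose peaks across it is fixed by the rule and is given as a description. Dense windows at the edge of a stretch had medians of 34 male and 15 female peaks, and the windows next to them outside had 17 and 7. Untreated and FCCP peaks had medians of 7 and 10 in those edge windows, and 12 and 17 in the next windows outside. In the 27 dense windows that lay at least 3 windows deep in a run, the medians were 40 male, 16 female, 3 untreated and 4 FCCP peaks. At least 8 windows away from any dense window, they were 6, 4, 18 and 26. Deeper windows thus had more male and fewer 3T3-L1 peaks than edge windows, while the female counts were nearly level.

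**Figure D2:**
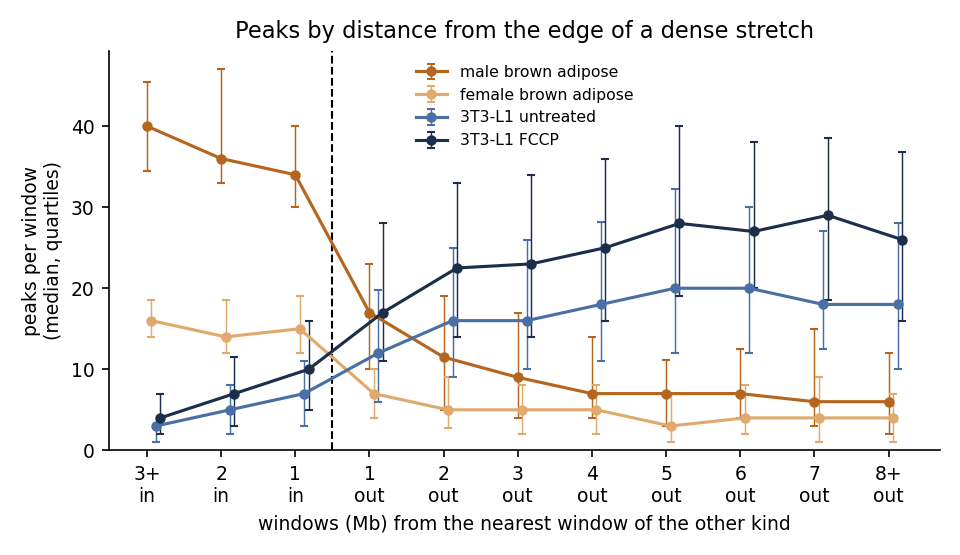
Median number of peaks per 1 Mb window (vertical axis, bars from the lower to the upper quartile of windows) by the distance to the nearest window of the other kind (horizontal axis, in windows of 1 Mb, dense windows left of the dashed line). The drop in male and female brown adipose counts at the line, from 34 to 17 and from 15 to 7, is set by the limit of 40 that defines the line; the 3T3-L1 medians, not used by the rule, go from 7 to 12 and from 10 to 17.

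The 10 windows richest in brown adipose peaks had 77 to 89 of them and 1 to 18 3T3-L1 peaks. Chromosome 11 had the top pair, at 69 to 70 Mb with 68 male and 21 female peaks and at 100 to 101 Mb with 69 and 20. The first of these held 1 untreated and 0 FCCP peaks, and the other 2 and 2. They were followed by chromosome 17 at 86 to 87 Mb (59 male, 26 female, 3 untreated and 4 FCCP peaks) and chromosome 10 at 80 to 81 Mb (59, 25, 1 and 2). Windows with 78 brown adipose peaks lay on chromosome 1 at 182 to 183 Mb, chromosome 17 at 34 to 35 Mb and chromosome 9 at 65 to 66 Mb, with 9, 6 and 18 3T3-L1 peaks. Windows with 77 lay on chromosome 19 at 5 to 6 Mb, chromosome 5 at 125 to 126 Mb and chromosome 8 at 129 to 130 Mb, with 5, 3 and 6.

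Both brown adipose lists were crowded in these windows. Their counts chose the windows, so the values for dense windows are given as a description. The male list had 36.4 ± 8.31 peaks per dense window (SD over 481 windows) and 11.1 ± 8.13 per other window. The female list had 15.7 ± 4.75 and 5.60 ± 4.07. Male peaks outnumbered female ones 2.31 to 1 in dense windows and 1.99 to 1 elsewhere. Single windows ranged from 21 male and 23 female peaks on chromosome 1 at 162 to 163 Mb to 55 and 7 on chromosome 9 at 21 to 22 Mb. The male list had more peaks in 475 dense windows, as many in 4 and fewer in 2. This count was not made over all windows, so it cannot be read as particular to dense windows. The male list is the longer one, and the medians over all windows were 13 male and 7 female peaks. Over all 2472 windows, which share genome gaps and mappability, male and female counts had a Spearman's rho of 0.829.

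Because both lists chose the windows, each was also used alone to choose windows in which the other was then read. The limits of 27 male and 13 female peaks divide the limit of 40 by the lengths of the lists. At 27 or more male peaks 506 windows were chosen (20.5% of all), and 442 of them were dense by the joint rule. They held 14.6 female peaks each, against 5.75 in the rest, a ratio of 2.55 (exact 95% interval 2.47 to 2.62). Female counts exceeded the median of all windows, 7, in 477 of the 506 windows (94.3%, against 44.6% of all windows). At 13 or more female peaks 487 windows were chosen (19.7% of all), 348 of them dense. They held 31.4 male peaks each, against 12.3, a ratio of 2.56 (2.51 to 2.61), and 466 of them (95.7%, against 49.8% of all windows) exceeded the male median of 13. The crowding seen in either library was therefore present in the other. The libraries share the strain background, the tissue and the call rule.

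The placing of brown adipose peaks within a dense window is given as a description, since 40 or more peaks in 1 Mb leave few stretches empty and short distances between peaks by the rule itself. Divided into stretches of 100 kb, 367 of the 481 dense windows (76.3%) had a brown adipose peak in every stretch, and none had peaks in fewer than 7 of the 10. The fullest stretch of a window held a median of 19.6% of its peaks and at most 39.5%. The median distance from a male peak to the next was 16.8 kb inside dense windows and 38.7 kb outside, and for female peaks 38.2 and 81.6 kb. The density alone gives a mean distance of 27.5 kb inside and 89.9 kb outside for male peaks, and 63.5 and 179 kb for female peaks. These are means and cannot be set directly against the medians, so they do not tell whether peaks cluster beyond their density. The next male peak was within 10 kb for 34.4% of male peaks inside and 18.5% outside, and within 1 kb for 5.22% and 2.35%. Counting male peaks within 10 kb of each other once left 74.5% of them, and female peaks 86.8%. With the limit kept at 40, 145 windows were then dense, 5.87% of all windows. Peaks were only taken away, so all of them had to be among the 481.

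Brown adipose peaks inside dense windows were taller than those outside, stood in denser surroundings, and were less far above the knockout. All of these values belong to peaks whose number chose the windows and are a description. The height of a peak is its normalized tag count, the tags in it scaled to a library of 10000000. The median height was 4.66 inside and 3.99 outside in males, and 3.56 and 3.05 in females. A peak of median height held 13 tags in each list, so heights move in steps of whole tags and these differences are small. The density of the 10 kb around a peak, obtained from its height and its deposited fold over that region, was 6.67 normalized tags per kb inside and 4.28 outside in males. In females it was 5.51 and 3.92. The fold over the surroundings was accordingly lower inside, with medians of 5.29 inside and 6.85 outside for male peaks, and 4.71 and 5.83 for female peaks.

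The median fold over knockout was 4.91 inside and 5.90 outside in males, and 5.55 and 6.02 in females. Knockout tags at male peaks, scaled to the wild-type library per the file header, had medians of 2.70 inside and 2 outside, and the unscaled knockout tags at female peaks had a median of 2 in both. HOMER's focus ratio, the share of tags placed as around a single point, was 0.758 inside and 0.786 outside in males and 0.737 and 0.769 in females. With only the peaks at least 4-fold over knockout and the limit kept at 40, 222 windows were dense. That is 8.98% of all windows, against 19.5% with all peaks. Taking peaks away cannot add windows, so all of them had to be among the 481.

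The share of brown adipose peaks inside dense windows differed with their height, again as a description of the lists that chose the windows. Of all male peaks 44.1% were inside, and of all female peaks 40.4%. In the tallest 10% of the male list the share was 66.9%, and in the lowest 10% it was 12.1%. The female values were 63.6% and 14.5%. The tallest peaks were thus above, and the lowest below, the share of their whole list.

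The 3T3-L1 lists, which were not used to choose the windows, showed the opposite. Untreated cells had 7.49 ± 6.21 peaks per dense window (SD over windows) and 19.5 ± 15.7 per other window, a ratio of 0.384 (exact 95% interval 0.371 to 0.397). FCCP-treated cells had 10.7 ± 8.64 and 26.1 ± 17.6, a ratio of 0.407 (0.396 to 0.419). Of the 481 dense windows, 67 (13.9%) had more 3T3-L1 peaks than the median window of the genome, 33, against 49.6% of all windows. When as many windows were taken from the top by their 3T3-L1 count, each with at least 62 peaks, 6 were dense windows, 1.25% of either set. Of all windows, 19.5% were dense. Dense windows with no 3T3-L1 peak at all numbered 9 (1.87%). Among all windows it was 2.91%, mostly windows without peaks of any list, and among the 1924 other windows with a brown adipose peak it was 0.156%.

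From 1 brown adipose peak upwards, the 3T3-L1 counts went down step by step with the brown adipose count. The 67 windows without a brown adipose peak are apart from this. They had medians of 0 untreated and 0 FCCP peaks, and 60 of them held no peak of any list. Windows with 1 to 9 brown adipose peaks had medians of 21 untreated and 29 FCCP peaks. Windows with 20 to 29 had 14 and 20, and windows with 30 to 39 had 11 and 16. Above the limit the medians were 7 and 10 at 40 to 49 peaks, 5 and 8 at 50 to 59, and 4 and 6 at 60 or more. The dense windows were the upper end of a gradient and not a class set apart.

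**Figure D3:**
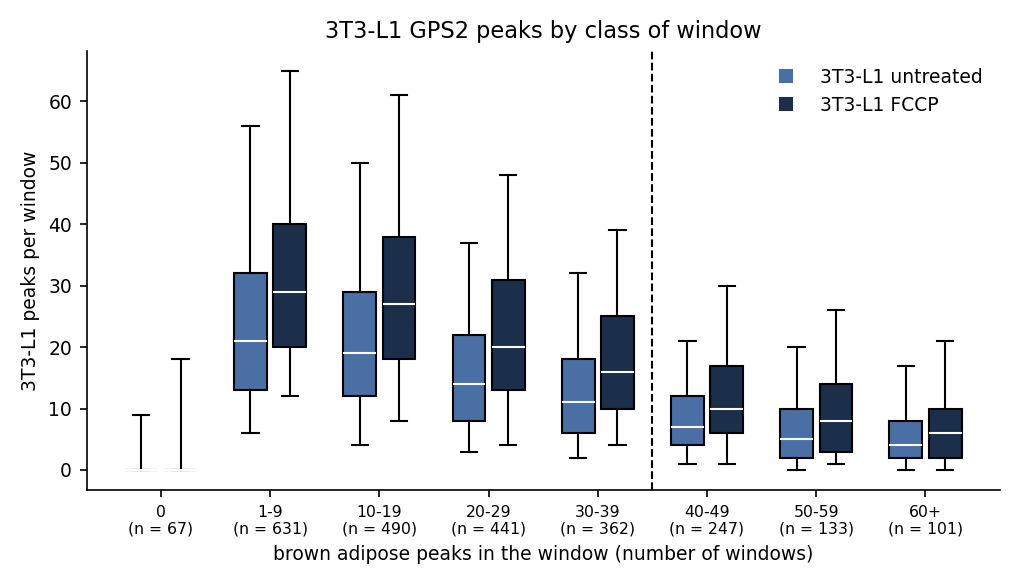
3T3-L1 GPS2 peaks per 1 Mb window (vertical axis) in windows grouped by their number of brown adipose peaks (horizontal axis, number of windows in brackets). Boxes span the quartiles with the median as a white line, whiskers run from the 5th to the 95th percentile of windows, and the dashed line marks the limit of 40; medians go from 21 and 29 in windows with 1 to 9 brown adipose peaks to 4 and 6 in those with 60 or more.

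The lower count in dense windows was found on each of the 19 chromosomes in both 3T3-L1 lists. The ratio of 3T3-L1 peaks per dense window to those per other window, both lists added, ran from 0.197 on chromosome 5 to 0.818 on chromosome 12. Chromosome 5 had 4.56 untreated peaks per dense window and 24.3 per other window. Chromosomes 12 and 14 differed least: they had 8.06 and 8.64 untreated peaks per dense window, and 9.39 and 10.7 per other window. Outside the dense windows these chromosomes had fewer untreated peaks than most others, while inside they were within the range of the other chromosomes, 4.56 to 11.5.

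**Figure D4:**
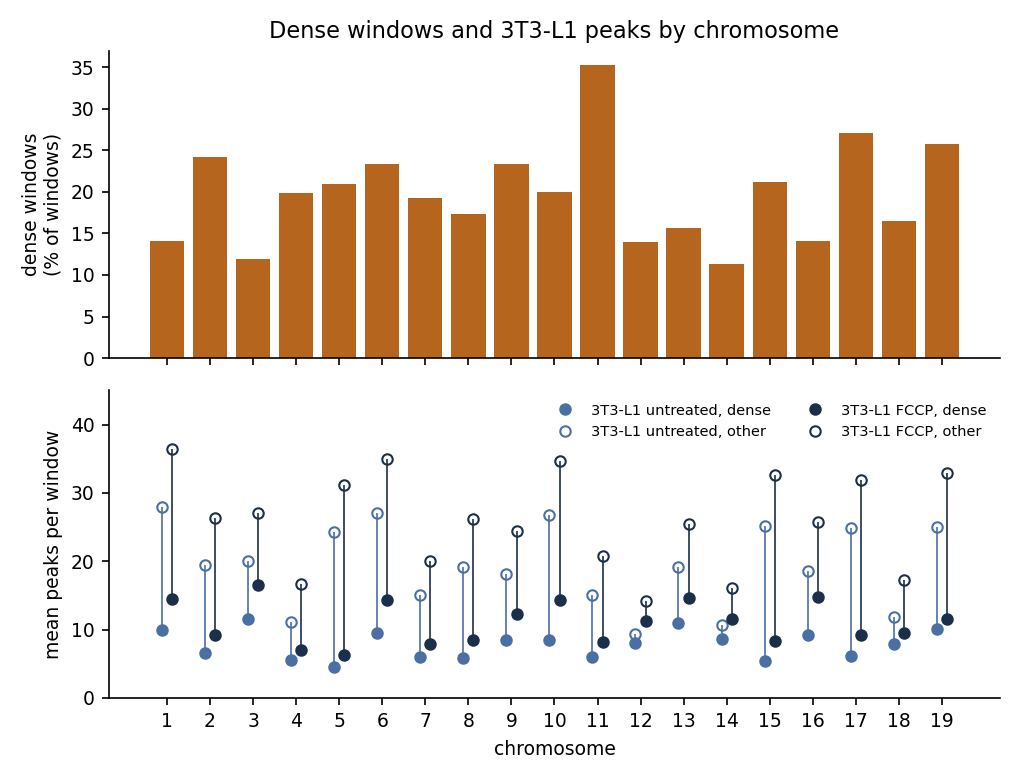
Share of windows that were dense (upper panel, percent of the windows of each chromosome) and mean 3T3-L1 peaks per window (lower panel, filled circles dense windows, open circles other windows, lines joining the pairs) for chromosomes 1 to 19. Chromosome 11 has the highest share of dense windows, 35.2%, and every filled circle lies below its open one.

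Both 3T3-L1 conditions were lower in dense windows by similar ratios. FCCP peaks outnumbered untreated ones 1.42 to 1 in dense windows and 1.34 to 1 elsewhere, and the FCCP share inside was above the untreated share on 13 of 19 chromosomes. FCCP counts were above untreated counts in 341 dense windows (70.9%) and in 1680 other windows (84.4%).

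Some dense windows were rich in peaks of all lists. The dense window with the most 3T3-L1 peaks was on chromosome 13 at 111 to 112 Mb, with 32 untreated and 45 FCCP peaks beside 30 male and 10 female ones. It was followed by chromosome 10 at 17 to 18 Mb (24 untreated, 49 FCCP, 28 male and 13 female peaks). On chromosome 6 at 17 to 18 Mb the counts were 24, 45, 32 and 32. On chromosome 1 at 60 to 61 Mb they were 25, 43, 34 and 23, and on chromosome 3 at 142 to 143 Mb 28, 35, 25 and 18. At the other end, the dense windows with no 3T3-L1 peak included chromosome 10 at 79 to 80 Mb and chromosome 8 at 123 to 124 Mb, each with 75 brown adipose peaks. The others named by the rule were chromosome 5 at 136 to 137 Mb (69), chromosome 7 at 45 to 46 Mb (65) and chromosome 15 at 85 to 86 Mb (58).

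The low share of 3T3-L1 peaks in dense windows depended on their height. In the lowest 10% of the untreated list 4.38% of peaks were inside (Wilson 95% interval 3.80 to 5.03), a density 0.189 times that of other windows. In the tallest 10% 19.8% were inside (18.7 to 21.1), a density 1.02 times that of other windows. The FCCP values were 4.93% (4.40 to 5.52) and 18.8% (17.8 to 19.8), or 0.215 and 0.957 times. Both intervals for the tallest peaks include 19.5%, the share of windows that are dense. With 3T3-L1 peaks of at least 4 times the tags expected per peak, a limit chosen with the data in view, the ratio was 0.860 for untreated and 0.760 for FCCP-treated cells. With peaks at least 8-fold over their surroundings it was 0.129 and 0.136.

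The tags around 3T3-L1 peaks moved with this. The 10 kb around untreated peaks held a median of 3.64 normalized tags per kb inside dense windows and 2.97 outside, and around FCCP peaks 3.63 and 3.06. The 3T3-L1 lists required 4-fold over these surroundings and the brown adipose lists 2-fold, so the tags that a 3T3-L1 peak needed went up with its surroundings. Untreated peaks had a median height of 4.43 normalized tags inside and 3.89 outside, and FCCP peaks 4.48 and 4.03. Medians of the surroundings climbed with the brown adipose count, from 2.68 per kb around untreated peaks in windows with 1 to 9 brown adipose peaks to 4.04 in windows with 60 or more. The brown adipose surroundings climbed in the same classes, from 2.09 to 7.69 per kb in males and from 2.19 to 6.16 in females. The part of these surroundings in the counts was not tested.

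**Figure D5:**
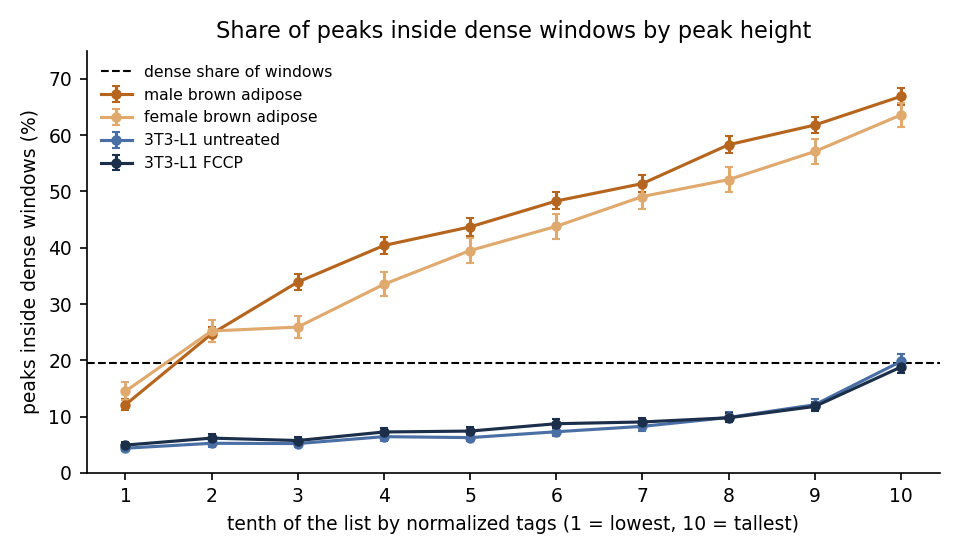
Percent of the peaks of each list that lie inside dense windows (vertical axis, bars Wilson 95% intervals) in 10 classes of equal size by normalized tags (horizontal axis, 1 lowest, 10 tallest). The dashed line is the 19.5% of windows that are dense, which is no baseline for the brown adipose lists, since 44.1% of all male and 40.4% of all female peaks were inside; the 3T3-L1 lists lie below it up to class 9 and reach 19.8% and 18.8% in class 10.

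Peaks at the same position in both brown adipose lists were more frequent inside dense windows. Sharing at least 1 bp, 902 of 17502 male peaks inside overlapped a female peak (5.15%, Wilson 95% interval 4.84 to 5.49), and 524 of 22147 outside (2.37%, 2.17 to 2.57), against 3.60% of all male peaks. Of the female peaks, 11.9% inside (11.2 to 12.7) and 4.70% outside (4.32 to 5.11) overlapped a male peak, against 7.62% of all. The partner lists were themselves denser inside. The male share was 2.18 times as high inside while female peaks were 2.81 times as dense, and the female share 2.54 times as high while male peaks were 3.27 times as dense. The shares thus differed less than the density of the partner peaks. At the shared peaks the median log2 ratio of male over female normalized tags was 0.65 inside (902 pairs, quartiles 0.39 and 0.93) and 0.58 outside (524 pairs, 0.29 and 0.88).

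Overlap with 3T3-L1 peaks was rarer inside dense windows. Of male peaks, 1.55% inside and 4.17% outside met an untreated peak (3.01% of all), and 1.54% and 4.84% an FCCP peak (3.39% of all). Of female peaks, 1.88% inside and 4.87% outside met an untreated peak (3.66% of all), and 1.74% and 5.34% an FCCP peak (3.88% of all). The ratios of these shares, 0.373 and 0.318 for male and 0.385 and 0.327 for female peaks, were close to or below the ratios of 3T3-L1 density, 0.384 and 0.407. Seen from the cells, 7.52% of the untreated peaks inside dense windows met a male peak and 2.37% of those outside (2.81% of all). Of FCCP peaks, 5.25% and 2.06% met a male peak (2.35% of all). With female peaks the shares were 3.94% and 1.40% of untreated peaks (1.61% of all) and 2.58% and 1.14% of FCCP peaks (1.27% of all). For untreated and FCCP peaks, the shares were 3.17 and 2.55 times as high inside with male peaks, and 2.82 and 2.25 times with female peaks. Male and female peaks, which chose the windows, were themselves 3.27 and 2.81 times as dense inside.

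The untreated and FCCP lists overlapped each other to a similar extent in both kinds of window. Of untreated peaks, 40.9% inside (39.3 to 42.6) and 41.3% outside (40.8 to 41.8) met an FCCP peak, although FCCP peaks were 0.407 times as dense inside. Of FCCP peaks, 28.8% inside (27.6 to 30.1) and 30.9% outside (30.5 to 31.3) met an untreated peak, against 30.7% of all.

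The tallest brown adipose peaks inside dense windows stood far above the rest, and the knockout library was high at all of them. The male peak at 95235259 to 95235393 of chromosome 9 had 511.2 normalized tags and the female peak at 95235257 to 95235395 had 423. They were 2.12- and 3.31-fold over the knockout, which had 727.2 scaled tags in the male comparison and 465 tags in the female one. This peak also overlapped peaks of both 3T3-L1 lists. Its window, from 95 to 96 Mb, had 41 brown adipose peaks. The next male peaks were all on chromosome 6 between 47 and 48 Mb, at 47678099 to 47678233 (72.2 normalized tags), 47610600 to 47610734 (66.5), 47673744 to 47673878 (62.9) and 47606249 to 47606383 (59.9). They were 2.40- to 2.61-fold over the knockout, and none overlapped a 3T3-L1 peak. Of all male peaks inside, only 1.55% met an untreated and 1.54% an FCCP peak. All of these chromosome 6 peaks but the one at 47610600 to 47610734 overlapped a female peak, against 5.15% of male peaks inside.

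The tallest female peak inside was on chromosome 8 at 36603396 to 36603534, with 536.2 normalized tags, 3.09-fold over knockout. The others were on chromosome 16 at 93677708 to 93677846 (514.9), chromosome 9 at 115199504 to 115199642 (460.2) and chromosome 14 at 68115314 to 68115452 (422.8), beside the chromosome 9 peak above. Each of these female peaks overlapped peaks of both 3T3-L1 lists, and 4 of the 5 had no male partner. Of all female peaks inside, 11.9% met a male peak, 1.88% an untreated and 1.74% an FCCP peak, so lacking a male partner was common.

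Male peaks that overlapped peaks of all the other lists numbered 6 of 17502 inside dense windows and 22 of 22147 outside. The tallest of the 6 was the chromosome 9 peak. The next was on chromosome 11 at 68879253 to 68879387, with 14.3 normalized tags in males, 9.41 in females, 9.93 in untreated and 7.46 in FCCP-treated cells, and 3.34- and 3.81-fold over knockout. On chromosome 2 at 118738190 to 118738324 the heights were 12.6, 6.11, 7.11 and 5.97. On chromosome 5 at 149494948 to 149495082 they were 11.3, 6.11, 4.97 and 4.48. On chromosome 10 at 17559460 to 17559594 they were 7.32, 4.32, 6.17 and 4.93, with 8.11- and 7.87-fold over knockout, the highest folds among these 5 peaks. This last peak lies in the window at 17 to 18 Mb that was among the dense windows richest in 3T3-L1 peaks.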

How the data were processed

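GPS2 ChIP-seq peak lists of 4 samples were analysed. The submitters' processing notes name Bowtie2, HOMER and the mm8 build for these samples, and versions are not given in the sources used here. Per the file headers, brown adipose peaks passed a false discovery threshold of 0.05 and were 2-fold or more above the knockout library and above the surrounding 10000 bp, with at most 1 tag per base pair. Per the file headers, 3T3-L1 lists used 0.001, no control, 4-fold over the surroundings and at most 3 tags per base pair. Peak height is the signal deposited by the authors, tags scaled to 10000000, and the deposited scaled knockout tags are a signal too. The authors' folds are ratios, the deposited focus ratio is a fraction, and the deposited HOMER score only ranked peaks. The deposited p-value columns and the clonal ratio were not used.

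Positions were read as 1-based and closed, and a window holds the peak centres from its start up to its end. Intervals are Wilson for shares and exact binomial for ratios of counts per window, both at 95%. Surrounding tags per kb were the height divided by the fold over the surroundings and the peak size. Overlap meant at least 1 bp. Groups came from the sample titles. Counting and overlap were tested on simulated data. Scripts ran in Python 3.11.15 with SciPy 1.17.1 for intervals, pandas 2.3.3 and numpy 2.4.6 for counting and matplotlib 3.10.9 for plots. Named regions were all runs of 4 or more dense windows, the 10 windows with most brown adipose peaks, the 5 dense windows with most and the 5 with fewest 3T3-L1 peaks, the 5 tallest peaks inside per brown adipose list, and up to 5 peaks found in all lists. Windows, limits and this rule were chosen with earlier results of these data known. Gene content and sequences of the windows were not analysed here, since the gene table and promoter sequences at hand are on another build, GRCm38.p6.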

Additional observations from a re-analysis of the deposited data

Results flagged for a closer look

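Windows chosen from 1 brown adipose list had more peaks of the other brown adipose list and fewer of both 3T3-L1 lists. Over whole lists, tissue and cell line thus moved in opposite directions under the same contrast. In the dense windows of the joint rule, the tallest 10% of 3T3-L1 peaks had log2 ratios of 0.03 (untreated) and -0.06 (FCCP). The tallest peaks were not read in windows chosen from 1 list. In windows with 27 or more male peaks, the log2 ratio of peaks per window, inside over outside, was 1.35 for the female list, -1.41 for untreated and -1.30 for FCCP-treated 3T3-L1 cells. In windows with 13 or more female peaks it was 1.35 for the male list, -0.92 for untreated and -0.84 for FCCP-treated cells. The difference between tissue and cells was not tested, since each condition has 1 list and the call rules of tissue and cells differ.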

How the results depend on the processing

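With 1 list per condition and peaks of median height at 13 to 30 tags, depth limits which low peaks were called at all, and counting intervals understate the uncertainty. No paired analysis was possible because each condition has 1 list. Of 58 recomputed values, 22 stayed within the counting interval of the reported value or, for the number of dense windows, within 1.5 times; 35 moved beyond that and 1 changed sign. The cause was not tested. The number of dense windows was 843 (34.1% of windows) at 30 and 234 (9.47%) at 50 peaks per window, against 481 (19.5%) as reported. It was 222 (8.98%) with peaks at least 4-fold over knockout and 145 (5.87%) with peaks within 10 kb counted once. Windows of 500 kb with 20 peaks numbered 1077 of 4934 (21.8%), and windows of 2 Mb with 80 numbered 196 of 1239 (15.8%). Both are among the 35 that moved because numbers of windows were compared, not shares. For untreated 3T3-L1 peaks, the log2 ratio of peaks per window inside over outside was -1.38. It was -1.07 at 30 and -1.49 at 50 peaks per window, -1.31 with windows cut from position 500000, -0.92 with the female list alone and -1.31 with brown adipose peaks at least 4-fold over knockout. It was -0.99 with equal numbers of top-scoring peaks, -2.96 with 3T3-L1 peaks at least 8-fold over their surroundings, and, in alternatives added after seeing the data, -0.98 against windows with at least 20 brown adipose peaks, -0.22 at 4 times the expected tags and 0.03 in the tallest 10%. For FCCP, in the same order, it was -1.30 as reported, then -0.99, -1.45, -1.25 and -0.84 (the knockout limit stayed within the interval), -0.94 with top-scoring peaks, -2.88, -0.96, -0.40 and -0.06, and -1.34 without windows that lack any peak. With brown adipose peaks at least 4-fold over knockout, the log2 ratio of overlap shares, inside over outside, was 0.73 for male with female peaks (1.12 as reported) and 0.81 for female with male (1.34), and that of male spacing -0.99 (-1.20). The log2 ratio of median heights was 0.22 as reported in each list. It was 0.32 in males at 50 peaks per window, and 0.11 in females both there and against windows with at least 20 peaks. The reported interval ran from 0.22 to 0.22, so any other value of this ratio counted as moved. For windows chosen from 20 or 35 male peaks, limits added after seeing the data, the female log2 ratio was 1.46 or 1.29, and from 10 or 17 female peaks the male one was 1.52 or 1.40.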
